A study of Homo sapiens with 12 samples.

Results

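Long intergenic noncoding RNAs (lincRNAs) are transcripts without a long open reading frame that come from their own genes between or beside protein-coding genes. The 395 lincRNAs described here were the genes that the deposited expression table labels lincRNA and whose mean over 12 libraries was at least 1 FPKM (fragments per kilobase of transcript, scaled to library depth), out of 58735 genes in the table. Of 7629 lincRNA genes, 404 reached that level, 9 of these were left out by name (PVT1, NEAT1, MALAT1 and other well-known RNAs), and 2937 were at 0 in every library. The members were chosen by their mean FPKM, so their levels are given as a description. The last members inside the threshold were AL354861.3, AC144836.1 and AC144652.1 at 1.013, 1.010 and 1.006 FPKM, and the first outside were AC092171.3, AC108693.2 and AC021851.1 at 0.998, 0.997 and 0.993 FPKM.

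The cells were TFK1, an established human cholangiocarcinoma (bile duct cancer) line labelled wild type in every group. The combination group received nab-paclitaxel (albumin-bound paclitaxel, a drug that stabilises microtubules) at 1.62 ng/ml together with 6 Gy of radiation. The nab-paclitaxel group received 1.62 ng/ml of the drug alone, the radiation group received 6 Gy alone, and control cells were left untreated. RNA was taken after 24 h from 3 biological replicates per group, and the stated purpose was to study how the drug alters sensitivity to radiation. The labels do not say whether the replicates were separate cultures, so p-values measure the spread between these libraries. Results come from 1 cell line.

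Because of how they are made, lincRNAs are a mixed class. Many are transcribed by the same polymerase as messenger RNAs and are capped, spliced and polyadenylated, while others start back to back with a coding gene at a shared promoter and are short-lived in the nucleus, where the RNA exosome degrades them. Some act in the DNA damage response: the transcription factor p53 switches on several lincRNA genes, and NORAD, a damage-induced cytoplasmic RNA, binds Pumilio proteins. For most of the RNAs named by a genomic clone (such as AC108865.1) no role is known to state.

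PURPL, a p53-induced lincRNA that has been reported to restrain p53, and LNCTAM34A, a lincRNA transcribed antisense to the microRNA-34a host gene, both rose after radiation (values below). Their RefSeq promoters (GRCh38.p14, 250 bases before to 50 after the start) are printed because each holds a p53 binding pattern that is rare among promoters. The capitals mark that pattern: 2 copies in a row, with no gap, of the 10-base p53 half-site, which is 3 purines, C, A or T, A or T, G and 3 pyrimidines. The PURPL window is chr5:27472042-27472341 on the plus strand and the LNCTAM34A window is chr1:9181954-9182253 on the plus strand.
PURPL: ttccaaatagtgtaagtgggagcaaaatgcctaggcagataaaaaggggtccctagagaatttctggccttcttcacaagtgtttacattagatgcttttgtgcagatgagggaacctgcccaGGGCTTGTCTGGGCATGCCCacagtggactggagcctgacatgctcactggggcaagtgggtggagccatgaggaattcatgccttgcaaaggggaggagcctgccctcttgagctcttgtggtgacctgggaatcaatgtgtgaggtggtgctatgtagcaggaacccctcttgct
LNCTAM34A: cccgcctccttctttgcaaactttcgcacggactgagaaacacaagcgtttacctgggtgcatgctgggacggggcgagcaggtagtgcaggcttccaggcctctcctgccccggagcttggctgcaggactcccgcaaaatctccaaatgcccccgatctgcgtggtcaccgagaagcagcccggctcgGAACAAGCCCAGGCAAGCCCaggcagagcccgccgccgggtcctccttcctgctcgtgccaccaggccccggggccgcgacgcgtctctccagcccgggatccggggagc

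The pattern began 127 bases before the RefSeq start of PURPL and 60 bases before the RefSeq start of LNCTAM34A. Its sequence reads the same way on both strands as a pattern, so 1 search covers both. Of 35116 RefSeq promoters of this length, 6 held it (0.0171%), and of the 126 members that matched the promoter table, PURPL and LNCTAM34A were the 2 that did. The single half-site is common: 6.63% of all promoters and 13 of the 126 matched members held it. The start given in the expression table was the same as the RefSeq start for PURPL and lay 200 bases upstream of it for LNCTAM34A. By the expression table's start, the LNCTAM34A pattern thus lies inside the gene and not before it. The pattern was searched after the PURPL values had been seen, and a match is a description of the letters, not a measured binding site.

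Library depth was 14840283 to 17992242 recovered fragments, and the 395 lincRNAs held a small share of it. That share was 0.259% ± 0.008 of fragments in the combination, 0.232% ± 0.005 with nab-paclitaxel, 0.301% ± 0.002 with radiation and 0.271% ± 0.005 in control (SD, n = 3 each). The lincRNAs were low and short beside messenger RNAs, with a median of 1.86 FPKM and 40.7 fragments per library, against 7.09 FPKM and 617 fragments for the 11227 protein-coding genes tested. Under 20 fragments lay 124 members, and 4 had no fragment in at least 1 library. Within groups, the median SD on the log2(FPKM + 1) scale was 0.32 for members under 20 fragments and 0.13 for those with at least 200, so values of the lowest members are the least precise. Library 2 of control, library 1 of nab-paclitaxel and, to a lesser degree, library 2 of the combination stood apart from their replicates in these genes. Of 6 biliary epithelial markers 5 were at 1 FPKM or more (KRT19, KRT8, KRT18, EPCAM and SOX9), while KRT7 averaged 0.53 FPKM. The 6 summed to 671 to 1665 FPKM per library. Lymphocyte and endothelial markers summed to at most 0.722 FPKM, macrophage markers to at most 4.11 FPKM and fibroblast markers to at most 7.79 FPKM.

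The most abundant member was NORAD (chr20:36045622-36050960, hg38), at a mean of 84.1 FPKM. It held 6.82% of the summed FPKM of the class, and the 10 highest members held 20.1%. Next came AC090204.1 at 25.8 FPKM, AC015813.1 at 22.0 FPKM, PURPL at 20.6 FPKM, AC092306.1 at 18.9 FPKM and LINC01602 at 18.7 FPKM. EBLN3P, a pseudogene of a bornavirus-like nucleoprotein sequence, averaged 16.6 FPKM and UCA1, a lincRNA first described in bladder cancer, averaged 14.9 FPKM. The list of 10 was closed by AC005261.1 at 13.4 FPKM and AC254633.1 at 12.9 FPKM. The steadiest members of at least 5 FPKM, by SD over all 12 libraries, were EBLN3P, LINC01234 and AC005332.6. None passed the test in any comparison with control, which follows from that choice and is no separate result.

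**Figure D1:**
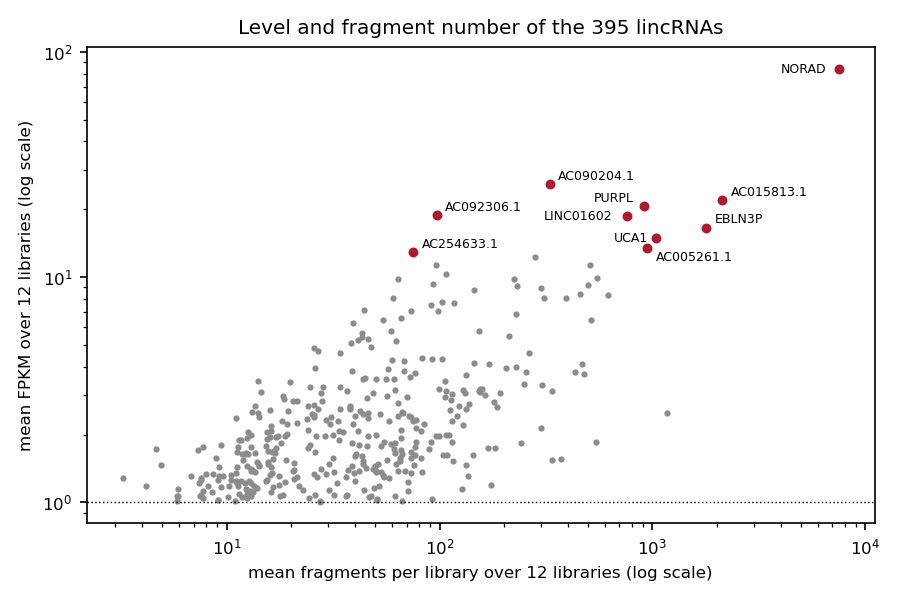
Mean level (FPKM, vertical log axis) against mean fragments per library (horizontal log axis) of the 395 lincRNAs, 1 point each, with the 10 highest in red and named. The dotted line is the 1 FPKM threshold; NORAD stands alone at 84.1 FPKM, and most points lie under 100 fragments.

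The combination changed the most lincRNAs. Against control, 45 members rose (11.4%) and 56 fell (14.2%), together 25.6%, at an adjusted p under 0.05 in limma. The other 294 did not pass. With quantile normalization the balance turned, with 53 higher and 45 lower. Of all 13609 genes tested, 22.9% passed, 12.2% higher and 10.6% lower, so the share of members lay close to that of all genes. After radiation alone 20 rose and 5 fell (5.06% and 1.27% of members), against 2.48% of all genes higher and 3.45% lower (5.93% in all). With nab-paclitaxel alone the balance was the other way: 8 rose and 35 fell (2.03% and 8.86% of members). Of all genes 5.41% were higher and 3.41% lower with the drug alone (8.82% in all). Of the 43 members called with nab-paclitaxel, 1 kept its call in every alternative setting (closing section).

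In the same test, the median log2 fold change of the 395 members was -0.07 for the combination, -0.09 for nab-paclitaxel and 0.05 for radiation, each against control. Over all tested genes the medians were 0.00 for the combination, 0.04 for nab-paclitaxel and -0.02 for radiation. In RNA from whole cultures, fewer cells of a kind and less RNA per cell cannot be told apart. Adding the drug to radiation (combination vs radiation) raised 7 members and lowered 28 (1.77% and 7.09%). Of all genes 4.81% were higher and 2.95% lower (7.75% in all). With quantile normalization 9 members were higher and 19 lower in that comparison, and 22 higher and 10 lower for radiation vs control. Adding radiation to the drug (combination vs nab-paclitaxel) raised 8 members and lowered 1 (2.03% and 0.253%). Of all genes 1.21% were higher and 2.70% lower there (3.92% in all). In at least 1 of these 5 comparisons 126 members passed, and 269 passed in none. The level threshold favoured some of these differences: 16 of the 45 that rose in the combination, 6 of 20 with radiation and 3 of 8 with nab-paclitaxel averaged under 1 FPKM in control, so they reached the mean of 1 FPKM only through treated groups where they were higher. Likewise 11 of the 56 that fell in the combination and 8 of 35 with nab-paclitaxel averaged under 1 FPKM in the treated group.

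At like fragment numbers the members passed the combination test at rates of 18.5% under 20 fragments, 24.5% from 20 to 50, 29% from 50 to 200 and 39.5% above 200. The other tested genes in those ranges passed at 10.6%, 16%, 21.6% and 24.6%. Members with more fragments thus passed more often, and most members have few. The count for the combination fell to 65 without library 3 of that group, and the counts for the other comparisons moved by over 1.5 times when single libraries were left out (values in the closing section).

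**Figure D2:**
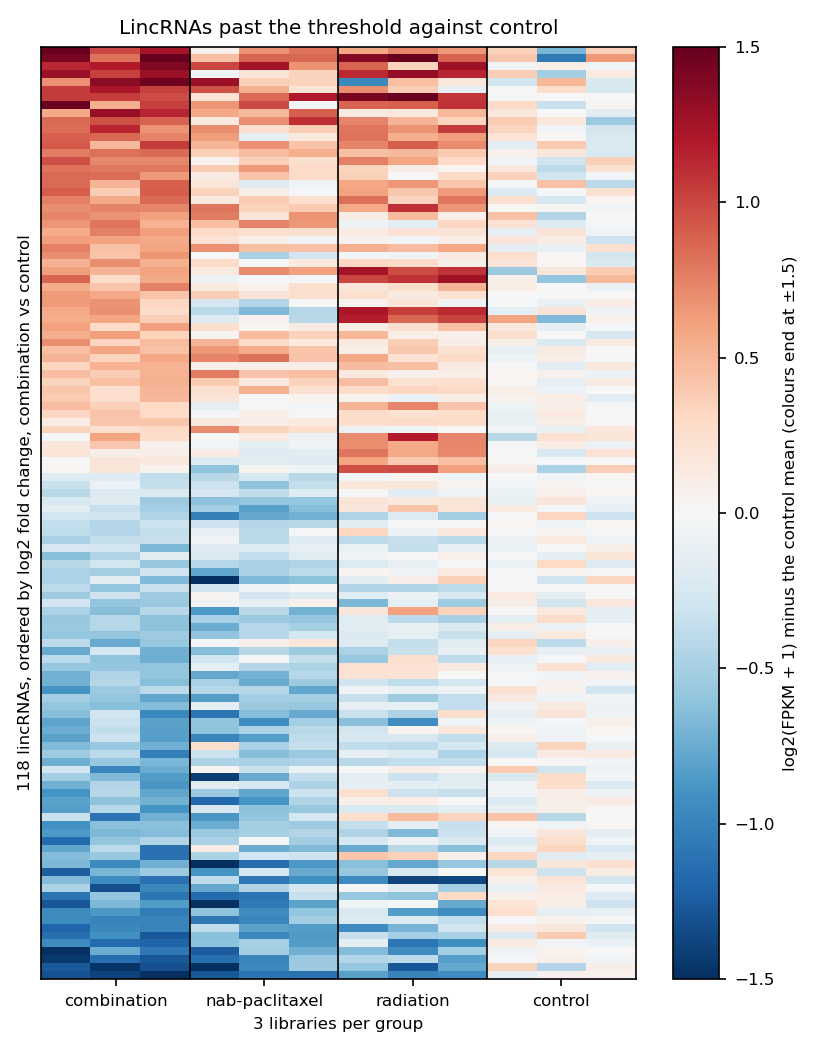
Each row is 1 of the 118 lincRNAs past the threshold in at least 1 comparison with control, ordered by the log2 fold change of the combination; columns are the 3 libraries of each group, and colour is log2(FPKM + 1) minus the control mean, with colours ending at 1.5 either way. By that order the combination columns run from red (higher than control) at the top to blue (lower) at the bottom.

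Among lincRNAs tied to p53 or DNA damage, 13 names were listed, 8 are in the table and 4 are members: PURPL, LNCTAM34A, MIR34AHG and NORAD. PICART1, a p53-inducible RNA described further on, was not on that list; its radiation difference of 0.65 ± 0.28 did not pass (adjusted p = 0.226). PURPL (ENSG00000250337, chr5:27472292-27496401, plus strand) had 23.1, 25.004 and 18.7 FPKM in the combination, 11.2, 9.29 and 11.1 FPKM with nab-paclitaxel, and 36.5, 32.4 and 34.1 FPKM with radiation, against 13.7, 17.5 and 14.7 FPKM in control. Every radiation library lay above every other library, every nab-paclitaxel library below every control library, and the combination in between. PURPL rose by 1.12 ± 0.12 (log2 fold change ± SE, adjusted p = 0.00075) with radiation and by 0.51 ± 0.12 in the combination (adjusted p = 0.0121), and fell by 0.50 with nab-paclitaxel (SE 0.12, adjusted p = 0.032).

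The single treatments were also compared with the combination. The combination lay 0.61 below radiation alone (log2 fold change -0.61 ± 0.12, adjusted p = 0.0157, lost under 3 of 23 alternatives) and 1.01 ± 0.12 above nab-paclitaxel alone (adjusted p = 0.00157). The rises with radiation, in the combination and over nab-paclitaxel kept their call under all 23 alternative settings, while the fall with nab-paclitaxel was lost under 9 of 23.

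LNCTAM34A (chr1:9182004-9196284, plus strand) was low. It had 1.67, 1.48 and 1.38 FPKM in the combination, 0.764, 0.962 and 0.903 FPKM with nab-paclitaxel and 1.75, 2.22 and 1.61 FPKM with radiation, against 0.831, 1.06 and 0.915 FPKM in control. All radiation and combination libraries were above all control libraries, and it rose by 0.56 ± 0.11 with radiation (adjusted p = 0.0138, lost under 3 of 22 alternatives) and by 0.37 ± 0.11 in the combination (adjusted p = 0.0316, lost under 9 of 22 alternatives). Its means with nab-paclitaxel and in control were under 1 FPKM, so it reached the level threshold only through the irradiated groups, and the threshold favoured its rise. With nab-paclitaxel the difference was -0.04 ± 0.11 (adjusted p = 0.839).

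MIR34AHG, the host of microRNA-34a on the opposite strand (chr1:9148011-9198906), had 1.37, 1.37 and 1.12 FPKM in the combination, 0.679, 0.893 and 0.996 FPKM with nab-paclitaxel and 1.61, 1.61 and 1.53 FPKM with radiation, against 0.996, 0.995 and 1.21 FPKM in control. Its radiation libraries were above its control libraries, but the difference of 0.32 ± 0.11 did not pass (adjusted p = 0.103). The 2 genes overlap, 25.9% of the exonic bases of LNCTAM34A lie in exons of another gene, and whether counting used the strand is not given in the sources used here, so their reads may be shared.

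NORAD had 92.9, 101 and 91.4 FPKM in the combination, 74.1, 79.8 and 75.6 FPKM with nab-paclitaxel and 90.6, 87.7 and 90.8 FPKM with radiation, against 69.0, 83.2 and 73.3 FPKM in control. The combination and radiation libraries lay above all control libraries. NORAD rose by 0.34 ± 0.08 in the combination (adjusted p = 0.0133), a call lost with quantile normalization, with only the groups compared and without control library 1. The radiation difference of 0.26 ± 0.08 did not pass (adjusted p = 0.103).

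**Figure D3:**
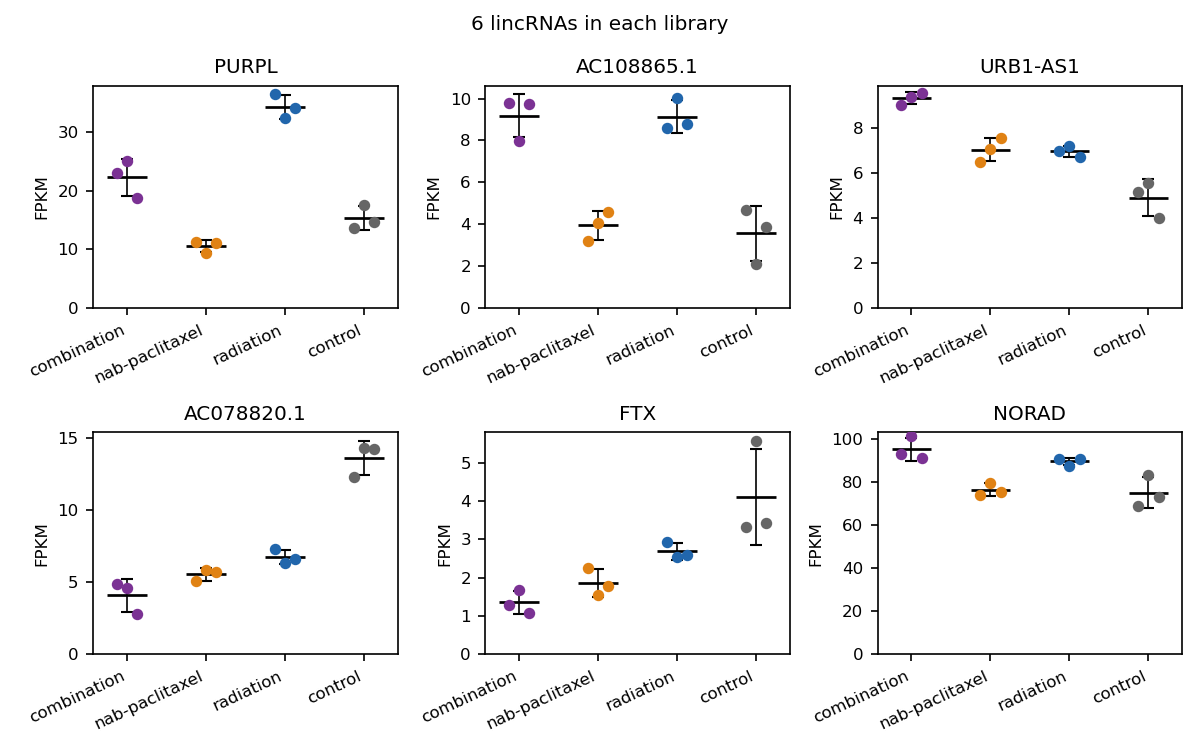
FPKM of 6 lincRNAs in each of 12 libraries (points), by group, with the group mean (long bar) and SD (error bar, n = 3). PURPL and AC108865.1 are high after radiation, URB1-AS1 is highest in the combination, AC078820.1 is highest in control, FTX is lowest in the combination, and NORAD differs little beside its level.

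The largest rise with radiation among members past the threshold was in AL359853.2, a lincRNA of few reads. It had 2.18, 3.01 and 1.48 FPKM with radiation, against 0.178, 0.184 and 0.187 FPKM in control, where it rests on a mean of 1 fragment per library. Its log2 fold change was 1.42 ± 0.23 (adjusted p = 0.00532), but it reached the level threshold only through the groups where it was high, so a difference of this kind was built into its choice. AC108865.1 (chr4:186890969-186892366) is better covered and gave a clearer series. It had 9.80, 7.99 and 9.73 FPKM in the combination, 3.20, 4.03 and 4.59 FPKM with nab-paclitaxel and 8.61, 10.0 and 8.77 FPKM with radiation, against 4.68, 2.10 and 3.87 FPKM in control.

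Both irradiated groups thus lay above both groups without radiation, with no overlap. AC108865.1 rose by 1.201 ± 0.19 in the combination (adjusted p = 0.00146), by 1.198 ± 0.19 with radiation (adjusted p = 0.00515) and by 1.05 ± 0.19 in the combination over nab-paclitaxel (adjusted p = 0.0125, lost under 3 of 23 alternatives). Its neighbour on the same strand, AC108865.2, starts less than 1 kb beyond its end and had 4.32, 3.21 and 4.50 FPKM in the combination, 2.35, 1.59 and 1.80 FPKM with nab-paclitaxel and 3.43, 3.62 and 2.96 FPKM with radiation, against 1.89, 3.02 and 1.23 FPKM in control. It passed over control in the combination (0.75 ± 0.19, adjusted p = 0.0164, lost under 5 of 22) and over nab-paclitaxel (0.78 ± 0.19, adjusted p = 0.0473, lost under 16 of 22), and its radiation difference of 0.55 ± 0.19 did not pass (adjusted p = 0.128). The neighbour was named after its values were seen.

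Other members that rose with radiation were AC036222.1 (1.12 ± 0.23, lost under 4 of 22 alternatives), FOXCUT, a transcript upstream of the transcription factor gene FOXC1 (1.10 ± 0.21, lost under 1 of 22), and AC127496.2 (1.02 ± 0.25, lost under 14 of 22). FOXCUT had 4.45, 3.53 and 3.83 FPKM with radiation, against 0.566, 1.56 and 1.99 FPKM in control. FOXC1 itself, 3893 bases away, differed by -0.21 (adjusted p = 0.266) with radiation.

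The falls with radiation were few but included well-covered RNAs. AC012625.1 had 1.80, 1.07 and 1.11 FPKM with radiation, against 4.72, 5.21 and 3.49 FPKM in control, a log2 fold change of -1.23 ± 0.20 (adjusted p = 0.00577) kept under all 22 alternatives. This fall was not particular to radiation. AC012625.1 also passed as lower in the combination (log2 fold change -0.91, kept under all 22) and with nab-paclitaxel (lost under 9 of 22). LNCAROD, an RNA reported to activate DKK1, had 7.56, 7.55 and 7.86 FPKM with radiation, against 10.6, 10.7 and 10.6 FPKM in control. Its change was -0.43 ± 0.09 (adjusted p = 0.0214), lost under 6 of 23 alternatives, among them leaving out any single radiation library.

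AC078820.1 (chr12:75694010-75698816, minus strand) was lower in each treated group and had the smallest adjusted p of all members. It had 4.88, 4.58 and 2.78 FPKM in the combination, 5.05, 5.85 and 5.69 FPKM with nab-paclitaxel and 7.27, 6.33 and 6.57 FPKM with radiation, against 12.3, 14.3 and 14.3 FPKM in control. No treated library reached a control library. The log2 fold changes were -1.55 ± 0.15 (adjusted p = 8.55e-05) in the combination, -1.16 ± 0.15 (adjusted p = 0.00198) with nab-paclitaxel and -0.92 ± 0.15 (adjusted p = 0.00499) with radiation, all kept under 23 of 23 alternatives.

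AC078923.1 spans this gene on the same strand (chr12:75563202-75984015). It had 6.82, 7.91 and 8.03 FPKM in the combination, 8.62, 9.07 and 9.43 FPKM with nab-paclitaxel and 9.37, 7.99 and 10.3 FPKM with radiation, against 12.7, 15.1 and 11.9 FPKM in control. Again all treated libraries lay below all control libraries, with changes of -0.73 ± 0.11, -0.50 ± 0.11 and -0.48 ± 0.11 for the combination, nab-paclitaxel and radiation (adjusted p = 0.000996, 0.0202 and 0.0249). The calls for nab-paclitaxel and radiation were lost under 5 and 7 of 23 alternatives. None of the exonic bases of AC078820.1 lies in an exon of another gene.

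OLMALINC, a lincRNA named for oligodendrocyte maturation, lies 8679 bases beyond the fatty acid desaturase gene SCD. It had 2.62, 3.07 and 2.75 FPKM in the combination, 3.38, 3.31 and 3.36 FPKM with nab-paclitaxel and 3.50, 3.65 and 3.69 FPKM with radiation, against 5.11, 5.11 and 4.83 FPKM in control. It fell by 0.66 in the combination, 0.47 with nab-paclitaxel and 0.38 with radiation on the log2 scale (SE 0.07 each; adjusted p = 0.000185, 0.00583 and 0.0104), the last 2 calls each lost under 1 of 22 alternatives. SCD differed by 0.04 in the combination (adjusted p = 0.788) and 0.15 with nab-paclitaxel (adjusted p = 0.279), and fell by 0.46 with radiation (adjusted p = 0.00801).

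FTX, a long RNA from the X-inactivation centre and 1 of 4 members on the list of cancer-linked lincRNAs, fell with the drug. It had 1.29, 1.68 and 1.08 FPKM in the combination, 2.25, 1.54 and 1.78 FPKM with nab-paclitaxel and 2.93, 2.53 and 2.59 FPKM with radiation, against 3.33, 5.57 and 3.43 FPKM in control. Control library 2 was the highest by far, and the groups with drug lay below all others. The changes were -1.10 ± 0.16 (adjusted p = 0.00098) in the combination and -0.82 ± 0.16 (adjusted p = 0.0149, lost under 1 of 22 alternatives) with nab-paclitaxel, and -0.45 ± 0.16 (adjusted p = 0.15) with radiation. Of the exonic bases of FTX, 44.3% lie in exons of other genes.

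Of the other cancer-linked members, CRNDE, named for colorectal neoplasia, fell by 0.42 in the combination (adjusted p = 0.0415, lost under 13 of 22 alternatives). UCA1 had 18.8, 18.0 and 18.3 FPKM with radiation, against 15.0, 12.1 and 14.4 FPKM in control. All 3 lay above control, and the difference of 0.39 ± 0.11 missed the threshold (adjusted p = 0.0567). MIR4435-2HG differed by 0.35 ± 0.09 with radiation (adjusted p = 0.0521). Of 6 microRNA host members, MIR210HG, the host of a hypoxia-induced microRNA, passed in the combination (0.39 ± 0.12, adjusted p = 0.0355, lost under 11 of 22 alternatives), and the other 5 did not pass in any comparison with control.

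Of the 35 members that fell with nab-paclitaxel alone, 21 had at least 50 fragments per library. With at least 200 fragments 9 of 38 members fell, and under 20 fragments 7 of 124. In either direction, 26.3% and 6.45% of members in these 2 ranges passed. The other tested genes there passed at 9.55% and 5.42%, so they too passed more often with more fragments. LINCMD1, known from muscle differentiation, had 1.35, 1.91 and 1.66 FPKM in the combination and 1.92, 2.23 and 3.37 FPKM with nab-paclitaxel, against 5.299, 5.78 and 5.15 FPKM in control. Both drug groups lay below control, by -1.29 ± 0.16 in the combination (adjusted p = 0.000331) and -0.89 ± 0.16 with nab-paclitaxel (adjusted p = 0.00956, lost under 1 of 22 alternatives). AC009093.4, AP001628.1, AC005546.1 and AC008537.2 also fell with nab-paclitaxel, by 1.03, 1.37, 1.21 and 0.94 on the log2 scale, at means of 11.3 to 43.3 fragments per library. Of these calls, AC009093.4 was lost under 14 of 22 alternatives, AP001628.1 under 9 of 22, AC005546.1 under 1 of 22 and AC008537.2 under 13 of 23. In the combination AC009093.4 and AC005546.1 also passed as lower, lost under 0 and 7 of 22, while AP001628.1 and AC008537.2 did not pass.

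Among abundant members, AC015813.1 had 15.6, 16.03 and 16.1 FPKM with nab-paclitaxel, against 22.7, 27.9 and 23.3 FPKM in control. It fell by 0.59 with the drug (SE 0.10, adjusted p = 0.0092) and lay 0.50 lower in the combination than with radiation (log2 fold change -0.50 ± 0.10, adjusted p = 0.018). AC092306.1 was lower too, at -0.84 ± 0.16 with nab-paclitaxel (adjusted p = 0.012) and -0.76 ± 0.16 in the combination vs radiation (adjusted p = 0.0176). The nab-paclitaxel calls of both were lost under 1 of 23 alternatives, and those of the combination vs radiation under 4 for AC015813.1 and 6 for AC092306.1.

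The 8 members that rose with nab-paclitaxel included MAPKAPK5-AS1, antisense to a stress kinase gene. It had 11.7, 8.98 and 9.15 FPKM with nab-paclitaxel, against 6.52, 6.71 and 5.98 FPKM in control. All drug libraries were higher, by 0.56 ± 0.10 (adjusted p = 0.0092, lost under 1 of 23 alternatives), and 34.6% of its exonic bases lie in exons of another gene. HAR1A, which holds a fast-evolving human sequence, rose by 0.66 ± 0.14 (adjusted p = 0.0171, lost under 3 of 22), and LINC02001 by 0.52 ± 0.13 (adjusted p = 0.0308, lost under 11 of 22). With only the groups compared in the fit, 1 member passed for nab-paclitaxel in place of 43.

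Radiation and drug differences could be compared across comparisons that share no library. All 25 members past the threshold for radiation vs control had the same sign in combination vs nab-paclitaxel, and 2 of them, PURPL and AC108865.1, passed there too. Over all 395 members the fold changes of these comparisons correlated with Pearson's r of 0.47, and over the 169 members with at least 50 fragments with r of 0.75. For the drug, 41 of 43 members past the threshold for nab-paclitaxel vs control had the same sign in combination vs radiation, and 18 passed there in that direction. The correlation was 0.54 over all 395 members and 0.75 over the 169. These are correlations across genes, which are not independent replicates, and the points share the libraries of their group.

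**Figure D4:**
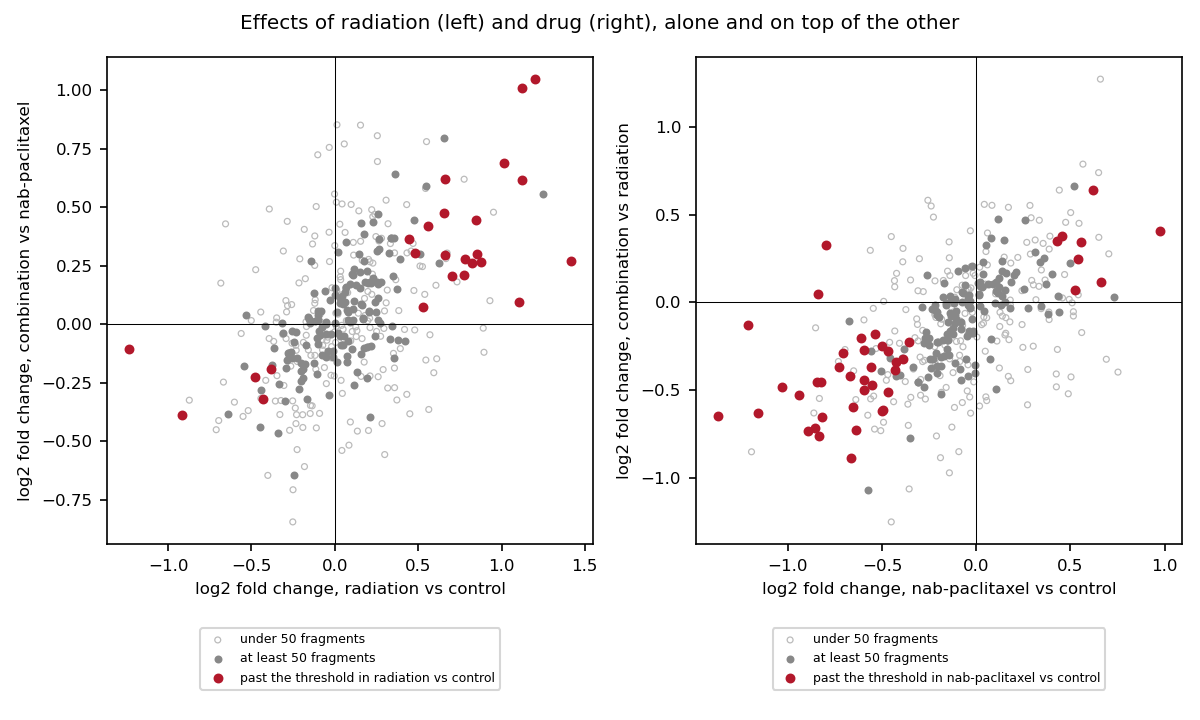
Left, log2 fold change of each lincRNA in combination vs nab-paclitaxel (vertical) against radiation vs control (horizontal); right, combination vs radiation against nab-paclitaxel vs control. Red points passed the threshold in the comparison on the horizontal axis, filled grey points have at least 50 fragments per library, and all 25 red points on the left and 41 of 43 on the right have the same sign on both axes.

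No member passed a test for interaction, that is, for an effect of the combination that differs from the sum of the single effects on the log2 scale. The smallest adjusted p was 0.989 in limma, 35 members had an unadjusted p under 0.05, and voom on recovered fragments gave 0 calls and 21 such members. The 2 members with the smallest p were AC106782.2, at -0.83 ± 0.19, and AC012625.1, at 1.13 ± 0.29 (both adjusted p = 0.989). AC106782.2 had 0.684, 0.634 and 1.07 FPKM in the combination, 1.34, 1.61 and 1.06 FPKM with nab-paclitaxel and 1.43, 1.52 and 1.17 FPKM with radiation, against 0.759, 0.591 and 0.867 FPKM in control. Both single treatments were thus higher than the combination and control in most libraries, at a mean of 17.8 fragments.

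The members differed by where they lie. A protein-coding gene starts within 1 kb on the other strand and runs the opposite way for 58 members, called divergent here. This grouping was made after the members' values had been seen. In the combination, 18 of the 58 divergent lincRNAs rose and 0 fell in limma (25 and 2 at an unadjusted p under 0.05; voom gave 15 and 1), while 27 of the other 337 rose and 56 fell. The rises were 31.0% of divergent and 8.01% of other members, beside 12.2% of all tested genes; 4 of the 18 averaged under 1 FPKM in control. The fold change was above 0 for 82.8% of the divergent members, for 37.1% of the others and for 50.4% of all tested genes, with medians of 0.32, -0.16 and 0.00 on the log2 scale.

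With nab-paclitaxel 3 divergent lincRNAs rose and 0 fell (13 and 0 unadjusted), against 5 and 35 of the others, and the medians were 0.18 and -0.13. That rise is 5.17% of divergent members, close to the 5.41% of all tested genes, and the count was 1 to 4 with single libraries left out. After radiation 5 rose and 0 fell (18 and 1 unadjusted), against 15 and 5 of the others, with medians of 0.22 and 0.04. The 5 were 8.62% of divergent members, beside 2.48% of all tested genes. They numbered 1 to 6 with single libraries left out: 1, 2 and 1 without radiation library 1, 2 and 3, 2 and 3 without control library 1 and 3. These comparisons share the control libraries. In combination vs radiation, which shares no library with nab-paclitaxel vs control, 4 divergent members were higher and 3 lower, against 3 and 25 of the others. These were 6.9% and 5.17% of divergent members and 0.89% and 7.42% of the others. Of all tested genes 4.81% were higher and 2.95% lower, and the divergent shares rest on few genes. With TPM scaling, and also with a replicate block, 0 divergent members were higher and 1 lower in combination vs radiation. The divergent counts there were 0 to 6 higher and 0 to 3 lower with single libraries left out (0 higher without radiation 1 or 2 or combination 2 or 3). The fold change was above 0 for 65.5% of divergent members, 32.0% of the others and 54.7% of all tested genes. The divergent and the other members were alike in coverage, with medians of 44.4 and 39.9 fragments.

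**Figure D5:**
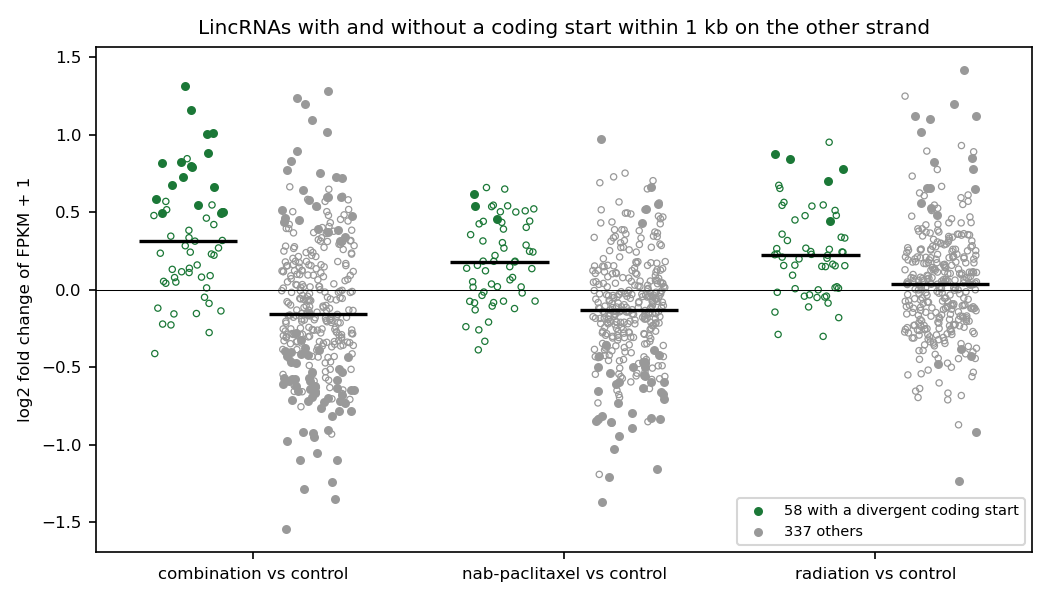
Log2 fold change of FPKM + 1 (vertical) for the 58 divergent lincRNAs (green) and the 337 others (grey) in each treated group against control; filled points passed the threshold and black bars are medians. In the combination the divergent median is 0.32 and that of the others -0.16, and no filled green point lies below 0.

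The count of 18 was 15 to 23 under 7 other settings (scaling, voom, a replicate block, a limit of 0.5 or 2 kb, without the 3 libraries that stood apart) and 12 to 22 with single libraries left out. The number that fell was 0 to 3 and 0 to 2 in these. These settings, too, were chosen after seeing the data. Among the 50 divergent members with no exonic base in another gene, 18 rose and 0 fell, against 18 and 45 of 264 others. In lincRNAs below the members' level (0.25 to 1 FPKM), the fold change in the combination was above 0 for 60.9% of 87 divergent genes and 48.9% of 695 others. With radiation the order there was the other way, 55.2% and 62.4%.

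URB1-AS1 and GAS6-DT are described here because of values already seen. URB1-AS1 (chr21:32393130-32393960) starts 104 bases from URB1, a ribosome biogenesis gene. It had 9.05, 9.39 and 9.56 FPKM in the combination, 6.50, 7.08 and 7.56 FPKM with nab-paclitaxel and 6.99, 7.20 and 6.70 FPKM with radiation, against 5.14, 5.56 and 3.98 FPKM in control. The combination lay above both single treatments and these above control, with no overlap. Its log2 fold changes against control were 0.82 ± 0.10, 0.46 ± 0.10 and 0.44 ± 0.10 for the combination, nab-paclitaxel and radiation (adjusted p = 0.000331, 0.0206 and 0.0242). The nab-paclitaxel call was lost under 6 of 23 alternatives and the radiation call under 9. URB1 itself changed by 0.33, 0.00 and 0.08 (adjusted p = 0.0445, 0.991 and 0.748).

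PICART1, whose name stands for p53-inducible cancer-associated RNA transcript, starts 229 bases from the integrin gene ITGA3. It had 6.97, 3.90 and 4.74 FPKM in the combination, 1.58, 2.89 and 3.29 FPKM with nab-paclitaxel and 2.64, 3.05 and 2.84 FPKM with radiation, against 2.08, 0.514 and 2.12 FPKM in control. The combination was above every other library, by 1.32 ± 0.28 over control (adjusted p = 0.00701), the largest rise of the combination among members past the threshold. ITGA3 differed by -0.05 (adjusted p = 0.848).

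GAS6-DT had 2.32, 3.10 and 1.96 FPKM in the combination, 2.02, 1.1995 and 1.39 FPKM with nab-paclitaxel and 2.25, 1.98 and 2.85 FPKM with radiation, against 1.32, 0.801 and 0.542 FPKM in control. It rose by 0.88 ± 0.18 in the combination and 0.84 ± 0.18 with radiation (adjusted p = 0.00606 and 0.0202, the second lost under 4 of 22 alternatives), and GAS6, which encodes a ligand of the TAM receptor kinases, rose by 0.42 in the combination (adjusted p = 0.0109). AC025181.2, which starts 121 bases from GOLPH3, had 1.34, 2.904 and 2.496 FPKM in the combination and 0.739, 0.767 and 1.23 FPKM with radiation, against 0.783, 0.568 and 0.412 FPKM in control. It rose by 1.01 ± 0.20 in the combination (adjusted p = 0.00439). GAS6-DT and AC025181.2 both averaged under 1 FPKM in control, so the level threshold favoured their rises.

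The coding partners of the divergent members were set beside them. Of 56 partners tested, 8 were higher and 8 lower in the combination, with a median of -0.01. Together they were 28.6% of partners, beside 22.9% of all tested genes. For the 17 divergent lincRNAs that rose and had a tested partner, the partner rose in 4, fell in 4 and did not pass in 9. NUP50-DT and TRAM2-AS1 rose by 0.50 ± 0.13 and 0.59 ± 0.13 (adjusted p = 0.017 and 0.00814, the first lost under 3 of 22 alternatives), while NUP50, a nuclear pore gene, fell by 0.33 (adjusted p = 0.00864) and TRAM2 fell by 0.50 (adjusted p = 0.0186). PAXIP1-AS1 rose by 0.49 ± 0.11 (adjusted p = 0.0073) and PAXIP1, a DNA damage response gene, fell by 0.36 (adjusted p = 0.0285). These pairs were picked after their values were seen.

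Members that lie on the same strand within 10 kb beyond the end of a tested coding gene (63 pairs) were set beside that gene. Some of these members also overlap a coding gene or have a divergent start, so the 2 kinds of pair compared next may share members. The correlation of fold changes across pairs in the combination was 0.31 over 63 pairs, and -0.01 over the 56 divergent pairs. In the other comparisons the 2 kinds of pair were closer: 0.27 and 0.21 for radiation, 0.09 and 0.08 for nab-paclitaxel, 0.19 and 0.19 for combination vs radiation, and 0.30 and 0.09 for combination vs nab-paclitaxel. Of 16 downstream members past the threshold in the combination, 10 had the sign of the coding gene, which passed in the same direction for 4 and in the opposite one for 1. With nab-paclitaxel 5 of 11 had its sign, with 1 in the same direction and 1 in the opposite one. The pairs named next lie beside members of large change and all have the same sign in the combination. AL021154.1, 7003 bases from ID3, an inhibitor of differentiation factors, had 2.23, 2.35 and 2.84 FPKM in the combination and 1.95, 2.505 and 1.34 FPKM with nab-paclitaxel, against 0.413, 0.571 and 0.435 FPKM in control. It rose by 1.23 ± 0.21 in the combination (adjusted p = 0.00215) and by 0.97 ± 0.21 with nab-paclitaxel (adjusted p = 0.0198, lost under 7 of 22 alternatives), and ID3 rose by 0.79 and 0.66 (adjusted p = 0.000468 and 0.006). AL021154.1 averaged under 1 FPKM in control, so it reached the level threshold only through treated groups, and the threshold favoured its rise.

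AP005233.2, 3737 bases beyond MYEOV, had 11.1, 8.97 and 10.8 FPKM in the combination, 6.49, 4.30 and 5.08 FPKM with nab-paclitaxel and 6.22, 6.16 and 7.18 FPKM with radiation, against 7.93, 6.48 and 5.16 FPKM in control. It was higher in the combination than in every other library, by 0.85 ± 0.15 over nab-paclitaxel (adjusted p = 0.0117) and 0.60 ± 0.15 over control (adjusted p = 0.0165), lost under 2 and 4 of 23 alternatives. MYEOV rose by 0.35 over nab-paclitaxel (adjusted p = 0.0302) and by 0.59 over control (adjusted p = 0.000468). Outside this class, AC254633.1, which lies 1169 bases from DHRS3, a retinoid-metabolising enzyme gene, rose by 1.28 ± 0.38 in the combination (adjusted p = 0.0308, lost under 5 of 23 alternatives), where DHRS3 rose by 0.92 (adjusted p = 0.000175).

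The RNA exosome and its adaptors, which degrade unstable nuclear RNAs, gave a list of 25 tested genes. In the combination 1 rose and 6 fell, with nab-paclitaxel 1 rose and 2 fell, and with radiation 0 rose and 2 fell. In either direction these are 28%, 12% and 8% of the list, beside 22.9%, 8.82% and 5.93% of all tested genes. The falls were 24%, 8% and 8% of the list, beside 10.6%, 3.41% and 3.45% of all tested genes. The rises were 4%, 4% and 0%, beside 12.2%, 5.41% and 2.48%. On a list of 25 these shares rest on few genes. The list's median log2 fold change was -0.02, 0.09 and -0.11. EXOSC6, a core subunit, averaged 12.9 ± 1.41 FPKM in the combination, 19.97 ± 2.93 FPKM with nab-paclitaxel and 24.7 ± 1.62 FPKM with radiation, against 33.0 ± 5.52 FPKM in control (SD, n = 3 each). It fell by 1.28 in the combination (SE 0.13, adjusted p = 0.000143) and by 0.70 with nab-paclitaxel (SE 0.13, adjusted p = 0.0123).

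ZCCHC8, a scaffold of the nuclear exosome targeting complex, averaged 3.29 ± 0.150 FPKM in the combination, 3.66 ± 0.261 FPKM with nab-paclitaxel and 3.54 ± 0.171 FPKM with radiation, against 5.22 ± 0.865 FPKM in control. It fell by 0.53, 0.41 and 0.44 in these groups (adjusted p = 0.00357, 0.0303 and 0.0229). EXOSC2 and NCBP3 fell by 0.32 each in the combination (adjusted p = 0.00595 and 0.00643), while the core subunit EXOSC4 rose by 0.54 (adjusted p = 0.011). The part of these changes in the lincRNA levels was not tested.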

How the data were processed

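RNA of TFK1 cells was sequenced in 12 libraries, 3 in each of 4 groups, from total RNA with a SMARTer mRNA-seq kit, per the labels' protocols. The authors deposited 1 table of FPKM per gene; the submitters' processing notes name the build hg38. Which aligner and counter made it, and whether strand was used, is not given in the sources used here, which leaves values of antisense and overlapping genes uncertain. The deposited FPKM were found to give whole fragments (within 0.05), and their scaling followed size factors of the median-of-ratios kind rather than library totals.

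The 13609 genes that averaged 1 FPKM or more were fitted on log2(FPKM + 1) with limma 3.58.1 in R 4.3.3 (trend, 4 groups in 1 fit, 8 residual and 3.39 prior degrees of freedom). P-values were two-sided and Benjamini-Hochberg adjusted over all genes tested in each comparison, with a threshold of 0.05. Fold changes on this scale understate the change of low genes. Depth was 14840283 to 17992242 fragments, so low members carry counting error. The fit was tested on simulated data.

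The members, lists and tests were chosen with earlier results of these data known. Named members were taken from the 10 highest, the largest changes past the threshold in each comparison, list members and the steadiest. Not every largest change is described. The fall of AC011450.1 in the combination (log2 fold change -1.24, kept under all 22 alternatives) is 1 that is not. Other members are marked as chosen after their values were seen. URB1-AS1 and the other divergent genes, except PICART1, AC025181.2 and PAXIP1-AS1, were chosen so, as were AC108865.2 and the p53 pattern. Replicate numbers were checked for pairing: combination and control libraries of the same number had r of 0.23, 0.54 and 0.17. The 0.54 was between control 2 and combination 2, which both stood apart from their replicates. No other pair of groups was positive at every number, and nab-paclitaxel and control gave -0.24, -0.49 and 0.17. Alternatives were no filter, a higher filter, a pseudocount of 0.1, size factors over tested genes, no trend, quantile and TPM scaling, voom, a replicate block, only the groups compared, and leaving out libraries. Figures were drawn with matplotlib 3.10.9.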

Additional observations from a re-analysis of the deposited data

How the results depend on the processing

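For combination vs control, 101 members passed; 58 passed with no filter and 19 with a filter of 5 FPKM, where 47 members were tested. The other counts, with no filter and with 5 FPKM, were 13 and 7 for radiation (25 otherwise), 18 and 10 for nab-paclitaxel (43), 10 and 9 for combination vs radiation (35), and 2 and 4 for combination vs nab-paclitaxel (9). With only the groups compared the last 4 counts were 16, 1, 73 and 2, and without the 3 libraries that stood apart radiation had 58, combination vs radiation 88 and combination vs nab-paclitaxel 22. With a replicate block, 88 members passed for the combination, 28 for nab-paclitaxel and 22 for combination vs radiation; 3 of 12 libraries correlated best with their own number. Leaving out single libraries gave 65 to 120 for the combination (65 without combination 3), 12 to 34 for radiation (12, 13 and 15 without radiation 1, 2 and 3, 16 without control 1), 21 to 43 for nab-paclitaxel (21 without nab-paclitaxel 2, 23 and 27 without control 3 and 1, 27 without radiation 2), 6 to 55 for combination vs radiation (55 without nab-paclitaxel 1, 15, 23 and 6 without combination 1, 2 and 3, 6, 7 and 7 without radiation 1, 2 and 3) and 2 to 16 for combination vs nab-paclitaxel (16 without control 2, 2, 4 and 2 without combination 1, 2 and 3, 5 without radiation 2 or 3). The interaction gave 0 in the alternatives run; only the groups compared does not apply there. In every alternative 52 of 101, 7 of 25, 1 of 43, 5 of 35 and 1 of 9 members kept their call. The sign turned, none past the threshold, in the combination for LINC01602 (-0.0246 by quantile, -0.11 to 0.17 leaving out libraries), EBLN3P (-0.125 to 0.0221), MIR222HG (0.014 without the 3 libraries, -0.228 to 0.0498), MIR22HG (-0.065 without the 3, -0.072 to 0.151), MIR4713HG (0.0508 by quantile, -0.176 to 0.104) and AC005332.6 (-0.00047 by TPM, -0.0047 without the 3, -0.0393 to 0.0953). The causes were not tested. Low fragment numbers limit the precision of most members.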
